A study of Mus musculus with 81 samples.

Results

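CA3 pyramidal neurons (CA3 PNs) and dentate granule cells (DGCs) of disomic (2N) mice were compared in 12 libraries of a series of 81, 6 of each population, and both populations were captured from the brains of the same 6 mice. The libraries were chosen by their labels: population CA3 or DG, genotype 2N, maternal diet ChN, with the conflict in the labels of 1 mouse given below. All mice of the comparison were male and 6 months old (6 MO), and came from dams that ate a diet with 1.1 g/kg choline (ChN) from mating until weaning, after which every pup had that control diet. They were the disomic offspring of crosses that also gave Ts65Dn (Ts) mice, a model of Down syndrome that carries an extra copy of a chromosome segment. The breeders were Ts65Dn females and F1 males of the strains C57Bl/6J Eicher and C3H/HeSnJ. Beside them stand 14 libraries of 7 other 2N mice whose dams had 5.0 g/kg choline over the same weeks (ChP), and 12 libraries of 6 Ts mice on ChN, again CA3 PNs and DGCs of the same brains. On average 750 CA3 PNs and 1175 DGCs per brain were cut by laser from Nissl-stained sections of 20 µm, so each library is a pool of neurons of 1 animal with whatever neighbouring tissue was cut with them, and female mice are not represented.

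CA3 PNs and DGCs are linked directly. DGCs, small and densely packed, fire rarely, and their axons, the mossy fibres, end in very large terminals on the proximal dendrites of CA3 PNs, where release is strongly facilitating and the vesicles hold zinc and opioid peptides beside glutamate. CA3 PNs are large neurons with long axons that reach each other through recurrent collaterals and reach CA1 through the Schaffer collaterals. DGCs keep the homeodomain factor Prox1 for life, and new DGCs are added in the adult brain. The comparison asks which transcripts set these partners apart in the normal mouse.

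Total expected counts ran from 625249 to 4744036 in CA3 PN libraries and from 696340 to 1469540 in DGC libraries, and the CA3 PN library held more counts in 5 of 6 mice (exact sign-flip permutation test, two-sided, p = 0.09375, adjusted p = 0.375 over 4 measures, smallest p possible 0.03125). At those totals 1 count was 0.246 to 1.57 CPM (the count scaled by the size of its library) in CA3 PNs and 0.632 to 1.3 CPM in DGCs. Mitochondrial transcripts held 5.85 to 8.14% of the counts in CA3 PNs and 6.07 to 8.23% in DGCs, and 13997 to 18964 genes were detected in CA3 PNs against 14833 to 16835 in DGCs. Neither the mitochondrial share (exact permutation p = 0.46875) nor the number of genes (exact permutation p = 0.625) passed the test. For mouse 15-145 the labels disagree, giving Ts for the CA3 PNs and 2N for the DGCs and for its CA1 library, which was not used here. Both libraries of the comparison were counted as 2N. Over 65 genes of the triplicated segments the mean level of its CA3 PN library was 5.02 on the log2 CPM scale. That lay between the other 2N CA3 PN libraries at 4.66 to 4.92 and the Ts CA3 PN libraries at 5.35 to 5.42.

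The 5 markers of the populations were checked first, and below the values of a gene are its lowest, median and highest CPM over the 6 libraries of a population, scaled by edgeR's TMM factors. Prox1 (ENSMUSG00000010175, GRCm39 chromosome 1, 189850232 to 189904637, minus strand), the transcription factor that holds granule cell identity, had 2.74, 3.29 and 4.45 CPM in CA3 PNs and 729, 812 and 882 CPM in DGCs. Dsp (chromosome 13, 38335230 to 38382553, plus strand), which encodes the junction protein desmoplakin, had 0, 0 and 0.983 CPM in CA3 PNs and 554, 628 and 735 CPM in DGCs. For both genes every DGC library lay far above every CA3 PN library, with a log2 fold change (LFC, CA3 PNs over DGCs) of -7.83 (SE 0.13) for Prox1 and -10.58 (SE 0.18) for Dsp, and adjusted p too small for edgeR to hold. SE here and below was derived from the test, as the absolute LFC before any prior count over the square root of its F. It can be smaller than the counting error where a population holds few counts, as for Dsp with 4 counts in CA3 PNs.

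The CA3 PN markers were less sharply divided, and DGC libraries held some of each. Bok, a member of the BCL2 family, had 90.7, 117 and 140 CPM in CA3 PNs and 0, 5.18 and 7.63 CPM in DGCs (LFC 4.55, SE 0.19, edgeR adjusted p = 3.17e-131). Nectin3, an adhesion protein of the junctions at mossy fibre synapses, had 203, 231 and 236 CPM against 1.06, 12.8 and 24 CPM (LFC 4.08, SE 0.14, edgeR adjusted p = 1.85e-84). Cpne4, a copine that binds membranes in a calcium-dependent way, had 297, 323 and 385 CPM against 65.8, 76.5 and 96.4 CPM (LFC 2.08, SE 0.09, edgeR adjusted p = 7.99e-109). All 5 markers lay on the side their population's name asks for, and in none did the 6 CA3 PN and the 6 DGC libraries overlap.

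Of 15980 genes tested, 7281 (45.6%) differed between the populations at an adjusted p under 0.05 in edgeR's quasi-likelihood test with the mouse as a block, 3834 (24%) higher in CA3 PNs and 3447 (21.6%) higher in DGCs. An absolute LFC over 1 was reached by 1744 (10.9%) and 1836 (11.5%) of them, over 2 by 722 (4.52%) and 885 (5.54%), and over 3 by 352 (2.20%) and 400 (2.50%). The groups did not overlap in 4113 genes (25.7%), of which 2291 (14.3%) were higher in CA3 PNs and 1822 (11.4%) in DGCs. The median LFC over all genes was -0.02. The split into higher and lower genes depended on the scaling. With library totals in place of TMM the median LFC was -0.25, a shift of -0.23, and 2746 genes were higher in CA3 PNs and 4860 in DGCs, so that the share of calls higher in CA3 PNs was 36.1% in place of 52.7%. No gene was called in opposite directions by the 2 scalings. Without mouse 15-145, 6866 genes were called, 3600 higher in CA3 PNs and 3266 higher in DGCs. Because these are bulk samples, fewer cells of a type and less RNA per cell cannot be told apart in any of the values that follow. Counts of list members below are to be read beside the shares over all genes, 24% higher in CA3 PNs and 21.6% higher in DGCs.

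**Figure D1:**
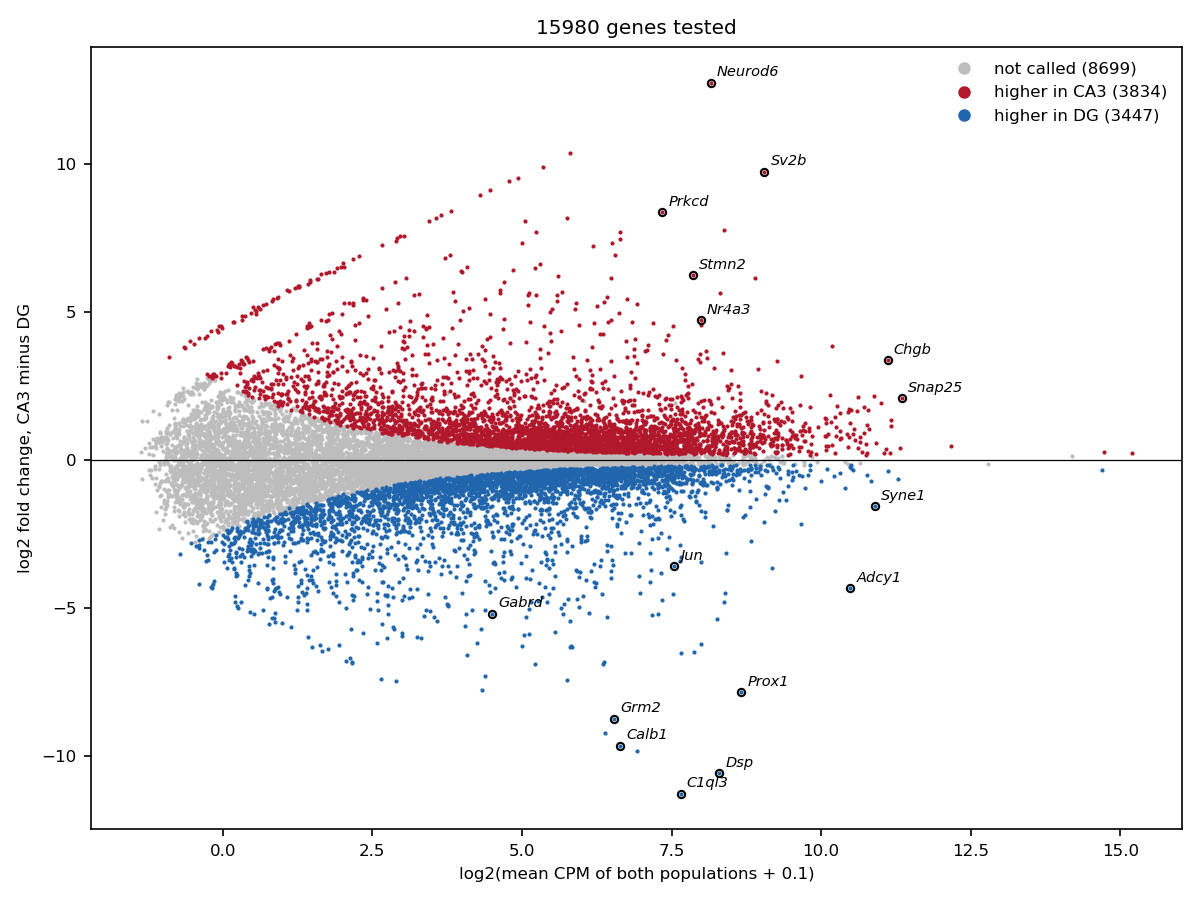
LFC (CA3 PNs over DGCs) of each of the 15980 genes against its mean level in both populations, log2(CPM + 0.1), with 3834 genes called higher in CA3 PNs, 3447 called higher in DGCs and 8699 not called. The widest differences on both sides lie at middle levels; genes listed at 0 in every library of a population have a fitted LFC that depends on the prior count.

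Markers of several other cell types differed between the libraries as well. Of 10 astrocyte markers 9 were higher in CA3 PN libraries and none in DGC libraries, and their summed level was 2090 to 3140 CPM against 836 to 1180 CPM. Most of that sum came from Slc1a2, a glutamate transporter that CA3 PNs are known to transcribe too, with 1640, 2190 and 2610 CPM in CA3 PNs and 562, 647 and 846 CPM in DGCs. Of 9 oligodendrocyte markers 7 were higher in CA3 PN libraries and 1, Ermn, in DGC libraries (not called without mouse 17-154, edgeR adjusted p = 0.0978), with sums of 330 to 508 CPM against 164 to 248 CPM. Of 7 vascular markers tested, 4 were higher in CA3 PNs (sums 40.9 to 64.5 against 12.7 to 21.9 CPM). Of 5 oligodendrocyte precursor markers, 1 was higher in CA3 PNs (14.3 to 25.9 against 3.79 to 11.7 CPM), and none of 8 microglia markers differed (36.4 to 56.7 against 32.5 to 55.2 CPM). Kl was the choroid plexus marker higher in DGCs and Clic6 the one higher in CA3 PNs, both at low levels, and Folr1 was listed at 0 in all 12 libraries.

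Of 14 inhibitory neuron markers, 11 were higher in CA3 PNs and 1 in DGCs, with sums of 418 to 748 CPM against 351 to 478 CPM. Sst, the somatostatin precursor, had 27.8, 58.0 and 134 CPM in CA3 PNs and 0, 0 and 0.954 CPM in DGCs, 909 counts against 1, a ratio of 544 (95% exact interval 97.4 to 21500, counting error only). Mouse 15-145 held the most of these counts, and without it the ratio was 301 (53.7 to 11900), while without mouse 17-56, which held the 1 count of the DGCs, Sst was at least 155-fold higher in CA3 PNs. The gene higher in DGCs was Gad1, a GABA-synthesising enzyme that granule cells are known to make as well, with 58.9, 98.6 and 112 CPM in CA3 PNs and 164, 179 and 187 CPM in DGCs. The part that glial, vascular and inhibitory cells had in the results that follow was not tested.

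Among neighbouring excitatory neurons, 5 of 6 immature granule cell markers tested were higher in DGCs and none in CA3 PNs, with sums of 181 to 219 CPM in DGCs against 45.6 to 69.7 CPM in CA3 PNs. Sox11, a factor of young neurons, had 6.12, 12.5 and 17.8 CPM in CA3 PNs and 70.7, 75.0 and 88.6 CPM in DGCs, while Dcx, the doublecortin of migrating neurons, was at 11.9, 13.6 and 24.5 CPM against 6.50, 19.8 and 32.1 CPM and was not called (edgeR adjusted p = 0.211, and 0.0244 with library totals). Of 7 CA2 markers, 4 were higher in DGCs and 1 in CA3 PNs. Pcp4, a regulator of calmodulin, had 9.53, 16.4 and 25.1 CPM in CA3 PNs and 77.1, 125 and 134 CPM in DGCs. Of 5 CA1 markers tested, 3 were higher in CA3 PNs and 2 in DGCs, all at levels under 47 CPM, and of 3 hilar mossy cell markers 1, Ajap1, was higher in CA3 PNs. The longer marker lists for the named populations gave 8 of 9 CA3 PN markers higher in CA3 PNs (median LFC 3.58) and 13 of 14 granule cell markers higher in DGCs (median LFC -6.04), although their members were chosen with earlier results of these data known. The exceptions were St18, a zinc finger factor listed for CA3 PNs, with 1.57, 7.38 and 18.9 CPM in CA3 PNs and 109, 128 and 160 CPM in DGCs, and Sema5b, a semaphorin listed for granule cells, with 71.2, 101 and 140 CPM in CA3 PNs and 2.60, 14.3 and 22.3 CPM in DGCs.

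**Figure D2:**
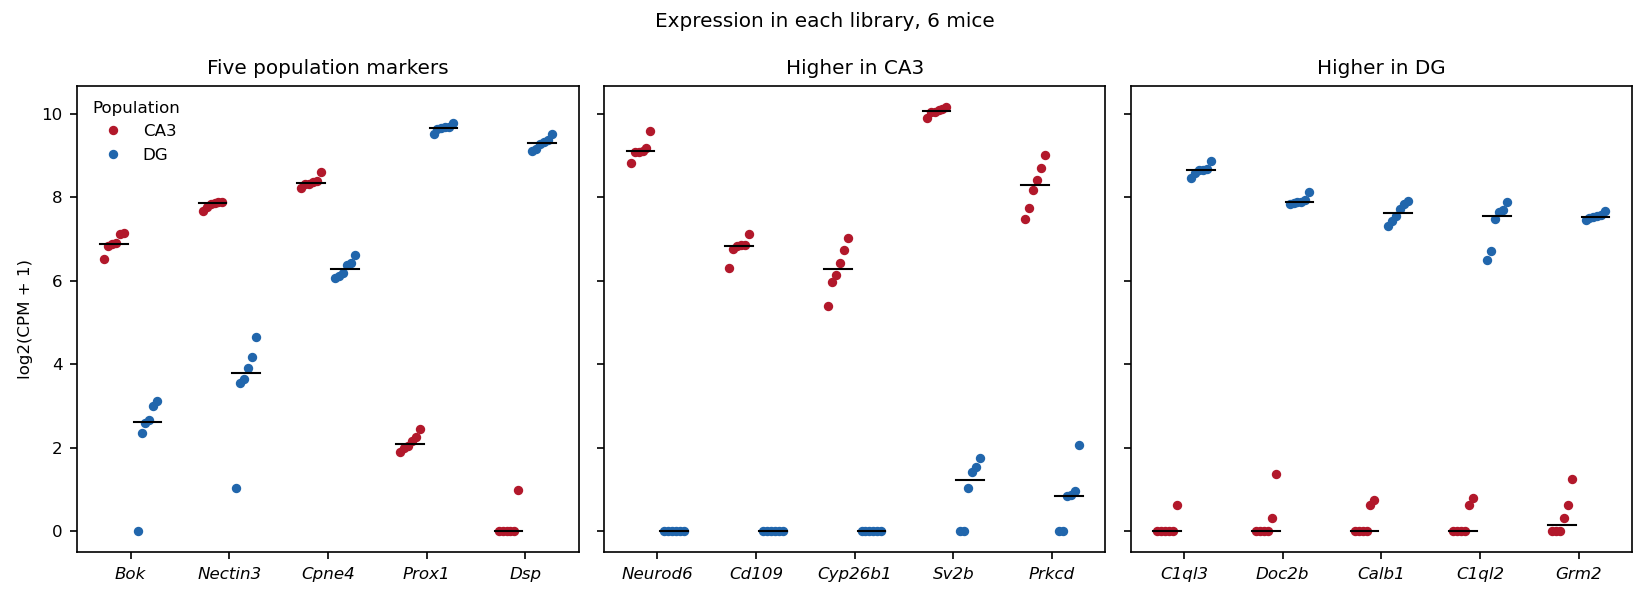
Level of 15 genes in each library, log2(CPM + 1), with 6 CA3 PN and 6 DGC libraries per gene, points ordered by value and a line at the median. The 5 markers stand in the left panel, genes among the highest LFC towards CA3 PNs in the middle panel and towards DGCs in the right panel. In all 15 the lowest library of the higher population lies above the highest library of the other. Genes of the middle and right panels were chosen to have no overlap, so for them this was fixed in advance.

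The genes with the highest fold differences were close to silent in the other population. Of 12785 protein-coding genes tested, 6385 (49.9%) were called. Of those with at least 20 CPM and no overlap, the 10 furthest towards DGCs were led by C1ql3, with 0, 0 and 0.556 CPM in CA3 PNs and 350, 403 and 464 CPM in DGCs. It encodes a secreted C1q-like protein that mossy fibres release into the synaptic cleft. In counts this was 1 in 6 CA3 PN libraries against 2734 in DGCs, a ratio of 4570 (95% exact interval 819 to 181000, counting error only). Its relative C1ql2 had 0, 0 and 0.741 CPM against 89.7, 187 and 235 CPM, a ratio of 966 (267 to 7990). Doc2b, a calcium sensor of spontaneous and asynchronous release, had 0, 0 and 1.57 CPM against 228, 234 and 278 CPM, a ratio of 1380 (380 to 11400). Calb1, the calcium buffer calbindin that is a classic stain for granule cells, had 0, 0 and 0.684 CPM against 158, 197 and 239 CPM, a ratio of 1130 (314 to 9380). For these 4 genes the reads in all 6 CA3 PN libraries came to 1 or 2 counts, so that the ratio is known only within wide limits. It moved by more than 1.5 times without 1 mouse: for C1ql3 to 2880 without 15-145 and to at least 1280 without 17-172, for C1ql2 to 1490 without 17-172 and 1690 without 17-21, for Doc2b to 2530 without 17-56, and for Calb1 to 716 without 15-145, 1950 without 15-147 and 1830 without 17-172.

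The list went on with Dsp and Prox1, given above, and Grm2. Grm2, the metabotropic glutamate receptor mGlu2 of mossy fibre terminals, had 0, 0.123 and 1.37 CPM in CA3 PNs and 175, 184 and 201 CPM in DGCs (LFC -8.74, SE 0.24). Pdyn, the precursor of the opioid peptide dynorphin, had 0, 0 and 0.684 CPM against 27.8, 41.3 and 54.1 CPM, a ratio of 232 (63.7 to 1930), or 444 without mouse 15-147. Onecut1, a transcription factor, had 0, 0 and 0.477 CPM against 24.2, 35.2 and 63.8 CPM, and Lratd2 had 0, 0.465 and 3.14 CPM against 97.7, 102 and 122 CPM. Several of these products are known parts of the mossy fibre terminal. All were found in every DGC library, which the condition of no overlap required.

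Towards CA3 PNs, 8 of the 10 genes were listed at 0 in all 6 DGC libraries. Neurod6, a basic helix-loop-helix factor of pyramidal neurons, had 450, 547 and 767 CPM in CA3 PNs, 7118 counts, which is at least 1420-fold higher than the floor of 3 counts over the 6 DGC libraries. Cd109, a protein tethered to the cell surface, had 78.0, 113 and 137 CPM, at least 254-fold higher. Cyp26b1, the enzyme that breaks down retinoic acid, had 41.0, 77.1 and 128 CPM, at least 192-fold higher. These 3 genes lay far above 1 count in every CA3 PN library, and the bounds hold for these 6 mice only.

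The others at 0 in DGCs had lower levels and lower bounds. Rem2, a small GTPase that limits calcium channels, was at least 144-fold higher in CA3 PNs, Il34, a ligand of the microglial receptor CSF1R, at least 121-fold, and Ccdc3 at least 101-fold. For the glycosyltransferase Mgat4c the bound was 91.5-fold and for Prss35 it was 67.0-fold. The other two had a few counts in DGCs. Sv2b, a glycoprotein of synaptic vesicles, had 945, 1070 and 1140 CPM in CA3 PNs and 0, 1.36 and 2.35 CPM in DGCs (LFC 9.73, SE 0.15). Prkcd, protein kinase C delta, had 178, 314 and 516 CPM against 0, 0.805 and 3.18 CPM (LFC 8.37, SE 0.20), and its CA3 PN libraries spread over a wider range than those of Sv2b.

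The 250 bases before the start sites of 6 genes are shown: among the protein-coding genes above, the 2 furthest towards DGCs and the 3 furthest towards CA3 PNs, which were at or near 0 in 1 population and high in the other, and Prox1. They were read from GRCm39 with the canonical start sites of GENCODE M39, on the strand of the gene, and capitals mark motifs of the search named after them. C1ql3 (chr2:13016618-13016867, minus strand), Dsp (chr13:38334980-38335229, plus strand) and Prox1 (chr1:189903209-189903458, minus strand) were higher in DGCs. Neurod6 (chr6:55658327-55658576, minus strand), Cd109 (chr9:78522485-78522734, plus strand) and Cyp26b1 (chr6:84565966-84566215, minus strand) were higher in CA3 PNs.
C1ql3: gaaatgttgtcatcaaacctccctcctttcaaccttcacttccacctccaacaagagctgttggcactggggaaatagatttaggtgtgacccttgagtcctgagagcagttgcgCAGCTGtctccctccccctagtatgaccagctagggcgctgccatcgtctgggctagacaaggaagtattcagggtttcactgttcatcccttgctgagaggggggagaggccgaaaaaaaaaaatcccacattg
Dsp: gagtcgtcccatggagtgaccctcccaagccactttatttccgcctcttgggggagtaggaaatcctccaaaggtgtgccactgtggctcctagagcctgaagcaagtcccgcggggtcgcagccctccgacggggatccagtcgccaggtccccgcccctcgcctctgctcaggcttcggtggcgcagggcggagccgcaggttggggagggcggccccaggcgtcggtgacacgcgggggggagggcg
Prox1: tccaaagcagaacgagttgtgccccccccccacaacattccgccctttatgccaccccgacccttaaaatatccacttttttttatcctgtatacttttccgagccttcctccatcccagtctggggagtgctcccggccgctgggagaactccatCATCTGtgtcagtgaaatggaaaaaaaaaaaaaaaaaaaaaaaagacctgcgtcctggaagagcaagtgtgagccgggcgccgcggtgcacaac
Neurod6: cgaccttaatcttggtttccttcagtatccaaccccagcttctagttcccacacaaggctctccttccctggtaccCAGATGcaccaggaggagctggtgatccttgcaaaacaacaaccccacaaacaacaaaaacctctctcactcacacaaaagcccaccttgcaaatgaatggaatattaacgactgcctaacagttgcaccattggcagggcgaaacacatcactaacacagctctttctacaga
Cd109: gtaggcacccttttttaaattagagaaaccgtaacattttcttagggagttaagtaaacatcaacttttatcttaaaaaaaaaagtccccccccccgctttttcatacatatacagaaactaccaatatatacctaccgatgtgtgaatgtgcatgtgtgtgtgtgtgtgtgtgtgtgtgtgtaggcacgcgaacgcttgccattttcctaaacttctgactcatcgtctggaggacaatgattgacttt
Cyp26b1: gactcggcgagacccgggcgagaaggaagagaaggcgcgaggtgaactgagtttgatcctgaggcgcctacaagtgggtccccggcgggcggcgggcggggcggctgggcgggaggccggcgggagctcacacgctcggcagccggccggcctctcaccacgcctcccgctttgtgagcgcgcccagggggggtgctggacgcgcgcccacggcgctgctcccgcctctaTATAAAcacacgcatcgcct
Searched were the E-boxes CAGATG and CAGCTG, bound by basic helix-loop-helix factors, the cyclic AMP response element TGACGTCA, all on both strands, and TATAAA on the strand of the gene. C1ql3 held CAGCTG at -135 from the start site, Neurod6 held CAGATG at -174, Prox1 held it on the other strand at -94, and Cyp26b1 held TATAAA at -20. The windows of Dsp and Cd109 held none of the 4 motifs. Over the 15900 promoters of genes tested, 11.8% held CAGATG, 11.1% held CAGCTG, 1.86% held the response element and 5.30% held TATAAA. Over the 719 promoters of genes higher in CA3 PNs with an LFC over 2 the shares were 14.3%, 12.8%, 0.695% and 6.12%, and over the 875 of genes higher in DGCs they were 13.9%, 13%, 0.800% and 5.83%. The shares in both sets lay within 1 percentage point of each other for each motif, and they are given as a description, with no test.

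By the difference in level rather than by the ratio, abundant transcripts came first. Chgb, the vesicle protein chromogranin B, had 3250, 3970 and 5470 CPM in CA3 PNs and 331, 398 and 412 CPM in DGCs (LFC 3.37). Snap25, a SNARE protein of vesicle fusion, had 3840, 4120 and 5070 CPM against 927, 995 and 1060 CPM (LFC 2.09). Dnm1, the dynamin that pinches off endocytic vesicles, had 2850, 3000 and 3410 CPM against 610, 689 and 769 CPM (LFC 2.16). Snap25 and Dnm1 serve the vesicle cycle, as does Pclo, the active zone protein piccolo, with 2880, 3200 and 3770 CPM against 792, 857 and 933 CPM (LFC 1.92), and the fifth was the chaperone Hsp90ab1 (LFC 1.33).

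Towards DGCs the widest difference in level was that of Adcy1, a calmodulin-stimulated adenylyl cyclase, with 109, 135 and 184 CPM in CA3 PNs and 2430, 2780 and 2880 CPM in DGCs (LFC -4.34, SE 0.07). Dgkh, a diacylglycerol kinase, had 67.7, 85.4 and 107 CPM against 996, 1080 and 1110 CPM (LFC -3.65). Trank1 (LFC -2.15), Syne1, which links the nucleus to the cytoskeleton (LFC -1.57), and Ncdn, the neuronal protein neurochondrin (LFC -0.64), followed, each with no overlap between the groups. Adcy1 and Dgkh are both enzymes of second messengers.

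Transcription factors of hippocampal neurons lay towards DGCs. Of 47 tested, 27 were higher in DGCs, 8 in CA3 PNs and 12 were not called, with a median LFC of -0.73, and the groups did not overlap for 22 and 7 of them. Beside Prox1, Rfx3, a factor of ciliary genes, had 18.6, 29.4 and 42.2 CPM in CA3 PNs and 570, 667 and 690 CPM in DGCs (LFC -4.48). Bcl11b, known as Ctip2, a zinc finger factor needed for granule cell maturation, had 30.6, 43.7 and 54.1 CPM against 418, 476 and 498 CPM (LFC -3.46). Its close relative Bcl11a lay the other way, with 319, 338 and 358 CPM in CA3 PNs and 122, 153 and 184 CPM in DGCs (LFC 1.11).

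Towards CA3 PNs the factors beside Neurod6 were few. Lmo4, a LIM domain cofactor, had 303, 352 and 443 CPM against 69.5, 74.1 and 79.6 CPM (LFC 2.27). Within the Neurod family the members differed in direction: Neurod1 (LFC -1.0) and Neurod2 (LFC -0.38) were higher in DGCs while Neurod6 was found in CA3 PNs. The Mef2 family, activity-regulated factors that were singled out after their values were seen, showed the same kind of division. Mef2c had 30.1, 36.8 and 48.9 CPM in CA3 PNs and 314, 373 and 413 CPM in DGCs (LFC -3.29), Mef2a was higher in CA3 PNs (LFC 0.69) and Mef2d was at 253, 347 and 433 CPM against 328, 343 and 388 CPM and was not called. Tbr1 and Tcf4, factors of forebrain excitatory neurons, were not called either, although library totals called Mef2d (LFC -0.24) and Tcf4 (LFC -0.32) towards DGCs.

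Genes of the synaptic vesicle and its release lay towards CA3 PNs, with 33 of 49 tested higher in CA3 PNs, 10 in DGCs and 6 not called (median LFC 1.09). Their summed level was 27600 to 32200 CPM in CA3 PNs and 12700 to 13400 CPM in DGCs. In the Sv2 family of vesicle glycoproteins the populations used different members. Sv2b was the CA3 PN member, as given above. Sv2c had 0, 1.18 and 3.14 CPM in CA3 PNs and 139, 158 and 203 CPM in DGCs (LFC -6.91, SE 0.21). Sv2a, added after its values were seen because it completes the family, was at 329, 389 and 429 CPM against 177, 193 and 228 CPM (LFC 0.98). Per length, the mean level of Sv2b in CA3 PNs was 210 TPM, a level corrected for transcript length, against 91.9 TPM for Sv2a and 0.258 TPM for Sv2c, while in DGCs Sv2a had 57.3 TPM, Sv2c 25.9 TPM and Sv2b 0.327 TPM.

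Beside Sv2c, the 10 release genes higher in DGCs included Doc2b and Stxbp6. Stxbp6, known as amisyn, a protein that binds SNAREs, had 1.11, 3.17 and 8.89 CPM in CA3 PNs and 343, 392 and 467 CPM in DGCs (LFC -6.50, SE 0.14). Among synaptotagmins, calcium sensors of exocytosis, Syt17 had 0, 0.649 and 1.23 CPM against 44.8, 65.2 and 75.9 CPM (LFC -6.28), and Syt10 likewise was a DGC transcript (LFC -4.89), while Syt1 (LFC 1.79) and Syt12 (LFC 2.90) were higher in CA3 PNs. These synaptotagmins other than Syt17 were chosen after their values were seen.

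Genes listed as organisers of the mossy fibre synapse were divided between the populations. RNA levels do not place a protein on a side of that synapse. Of 39 tested, 15 were higher in CA3 PNs, 16 in DGCs and 8 were not called, with a median LFC of 0.11. Among those higher in DGCs, beside C1ql2 and C1ql3, Lrrtm4, a postsynaptic leucine-rich repeat protein of granule cell dendrites, had 10.9, 15.3 and 23.6 CPM in CA3 PNs and 230, 263 and 304 CPM in DGCs (LFC -4.12). Among those higher in CA3 PNs, Robo1, a receptor of Slit proteins, had 384, 445 and 509 CPM against 31.4, 41.9 and 56.3 CPM (LFC 3.41). Nrxn3, the neurexin that binds the C1ql proteins, had 568, 670 and 735 CPM against 91.0, 119 and 146 CPM (LFC 2.50).

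The teneurins, adhesion proteins that meet latrophilins across the synapse, divided by member, and apart from Tenm4 they were chosen after their values were seen. Tenm4 had 176, 213 and 260 CPM in CA3 PNs and 13.3, 14.7 and 22.1 CPM in DGCs (LFC 3.75) and Tenm2 was also higher in CA3 PNs (LFC 1.18), while Tenm1 (LFC -3.39) and Tenm3 (LFC -1.87) were higher in DGCs. Gpc4, a heparan sulfate proteoglycan of mossy fibre terminals, had 1.37, 4.32 and 5.93 CPM against 81.9, 106 and 127 CPM (LFC -4.71), and its receptor in CA3 PNs, Gpr158, had 274, 307 and 356 CPM against 89.7, 101 and 110 CPM (LFC 1.62). That ligand and receptor pair, also chosen after its values were seen, thus lay on opposite sides in these libraries.

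Of 7 kainate receptor genes, 4 were higher in CA3 PNs, the auxiliary subunits Neto1 and Neto2 among them, and 2 in DGCs. The high-affinity subunits were higher in CA3 PNs: Grik4 had 118, 144 and 193 CPM against 23.5, 36.4 and 42.2 CPM (LFC 2.09) and Grik5 had 266, 282 and 309 CPM against 153, 184 and 194 CPM (LFC 0.67). The auxiliary subunit Neto2 had 123, 161 and 188 CPM against 4.97, 7.5 and 15.3 CPM (LFC 4.25), with Neto1 at an LFC of 1.61. Among the low-affinity subunits Grik3 had 3.89, 8.65 and 12.6 CPM in CA3 PNs and 106, 110 and 130 CPM in DGCs (LFC -3.76), Grik2 was higher in DGCs as well (LFC -1.03), and Grik1 was at most 6.64 CPM in any library and was not called. Of the 5 receptor subunits, 2 were thus higher in CA3 PNs and 2 in DGCs.

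For AMPA receptors the widest differences were those of auxiliary subunits. Gria1 (LFC -0.18) and Gria2 (LFC -0.26), the main subunits, overlapped between the populations and were slightly higher in DGCs, while Gria3 (LFC 0.42) and Gria4 (LFC 1.13) were higher in CA3 PNs. Of the auxiliary proteins, Gsg1l had 0, 0.620 and 0.741 CPM in CA3 PNs and 61.1, 73.6 and 86.0 CPM in DGCs (LFC -6.89, SE 0.30). Cnih3 (LFC -5.19) and Shisa9 (LFC -4.51), which also shape the channel's gating, had at most 9.57 CPM in CA3 PNs and at least 87.2 CPM in DGCs. Cacng2, known as stargazin, lay the other way, with 94.3, 109 and 152 CPM against 23.4, 39 and 59.4 CPM (LFC 1.52), and Shisa6 did too (LFC 1.08). In all, 7 of 16 members were higher in CA3 PNs and 8 in DGCs.

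Of 6 NMDA receptor subunits tested, 2 were higher in CA3 PNs and 2 in DGCs. Grin1, the obligatory subunit, had 880, 987 and 1060 CPM in CA3 PNs and 501, 551 and 591 CPM in DGCs (LFC 0.83), while Grin2a was slightly higher in DGCs (LFC -0.32) and Grin2b was at 1120, 1460 and 2060 CPM against 1250, 1580 and 2160 CPM and was not called (with library totals or without mouse 17-56 it was called towards DGCs, LFC -0.32 and -0.15). Of 7 metabotropic receptors tested, 3 were higher in CA3 PNs and 3 in DGCs, and with library totals 1 and 4. Apart from Grm2 the members with high levels lay close together, with Grm5 at 390, 425 and 445 CPM against 378, 401 and 449 CPM (not called, but called towards DGCs with library totals, LFC -0.19, edgeR adjusted p = 0.0188).

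GABA-A receptor subunits lay towards DGCs, with 5 of 12 tested higher there and 1 in CA3 PNs, or 8 and 1 with library totals. Gabrd, the delta subunit of extrasynaptic receptors that carry tonic inhibition, had 0, 1.09 and 2.22 CPM in CA3 PNs and 36.0, 45.2 and 55.4 CPM in DGCs (LFC -5.19, SE 0.32). The alpha 4 subunit that joins it, Gabra4, had 82.9, 94.4 and 122 CPM against 177, 194 and 213 CPM (LFC -0.99), and Gabra5, an alpha subunit of pyramidal neurons, was the member higher in CA3 PNs, with 217, 232 and 271 CPM against 113, 159 and 172 CPM (LFC 0.65). The GABA-B receptor genes Gabbr1 (LFC 0.54) and Gabbr2 (LFC 0.59) were higher in CA3 PNs, whereas the potassium channels they open, Kcnj3 (LFC -1.04), Kcnj6 (LFC -0.87) and Kcnj9 (LFC -2.12), were higher in DGCs. All 6 tested members of that last group differed.

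**Figure D3:**
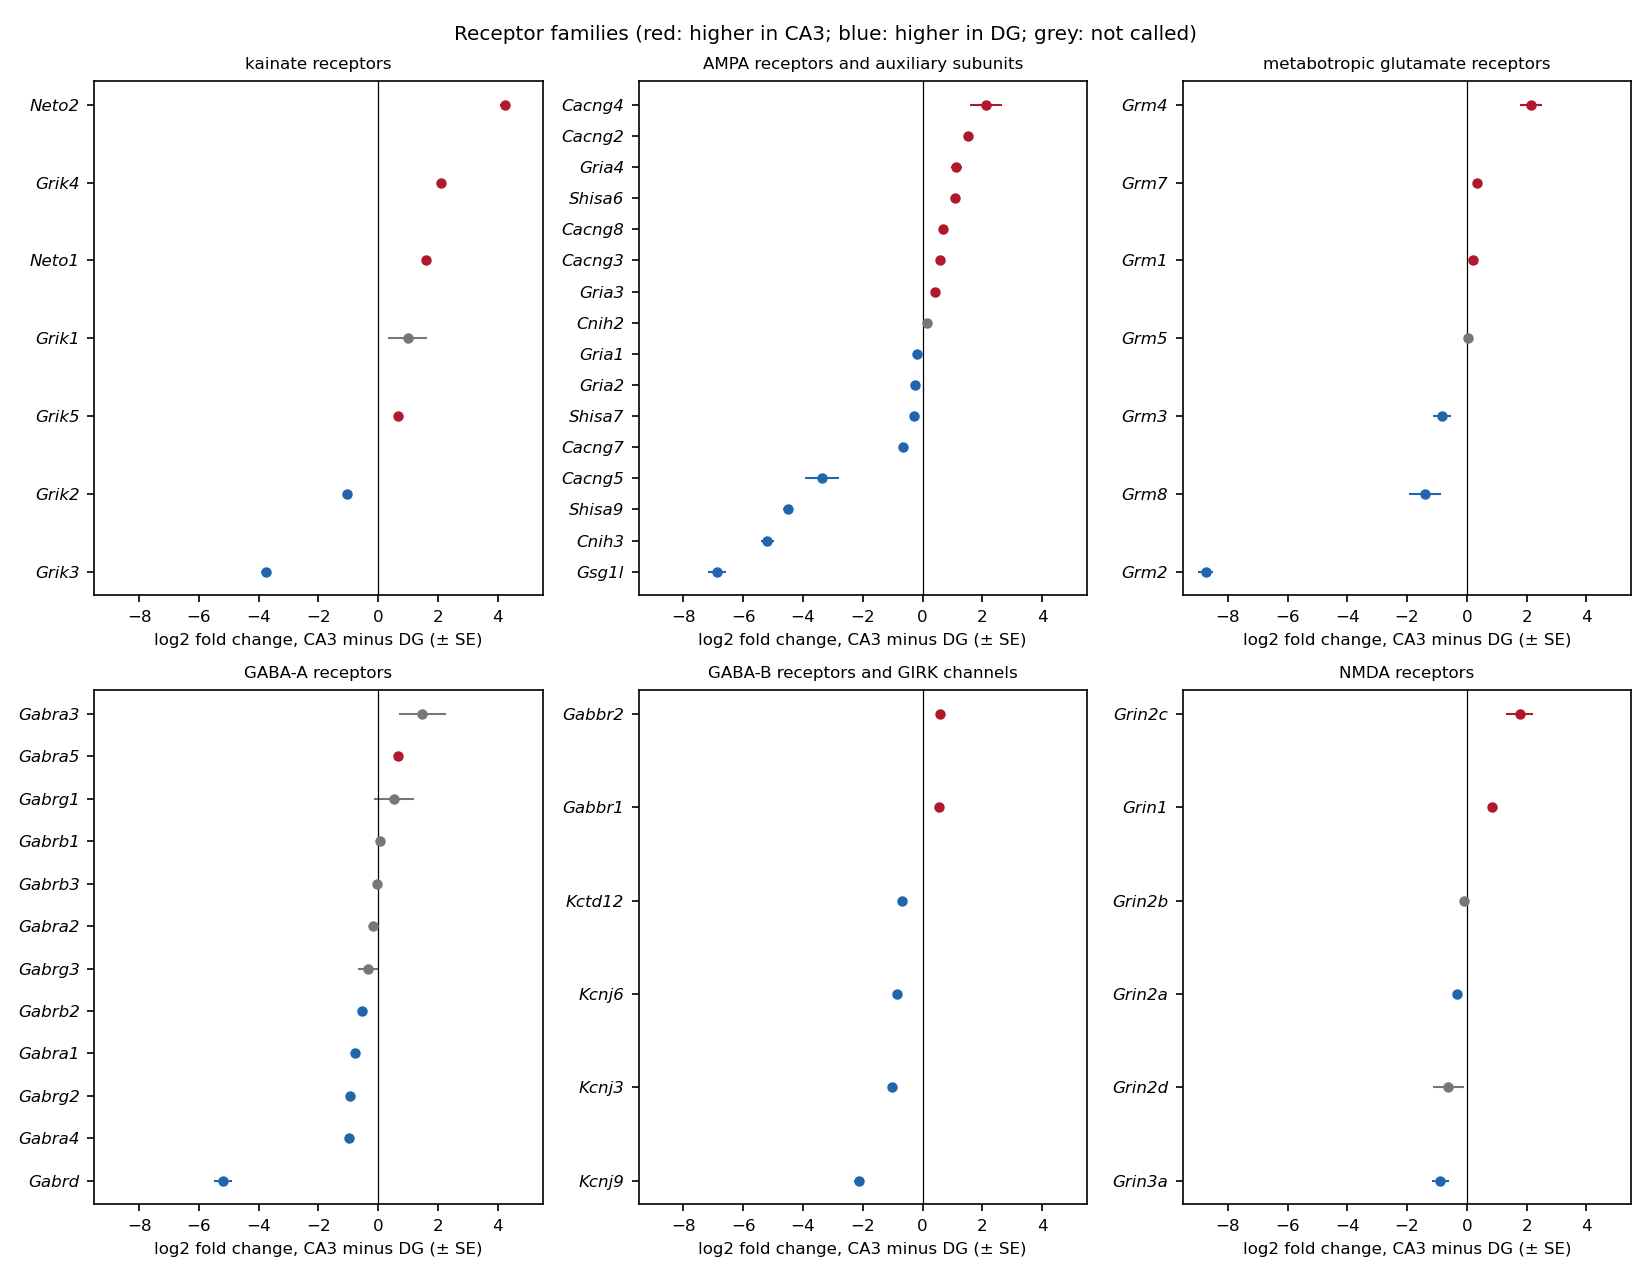
LFC (CA3 PNs over DGCs) with its SE, as derived from the test, for the members of 6 receptor and channel families, 6 mice. The bars of Grm2 and Gsg1l, with 4 and 6 counts in CA3 PNs, are shorter than their counting error. Points to the right are higher in CA3 PNs; Gabrd at -5.19, Gsg1l at -6.89 and Grm2 at -8.74 stand far to the DGC side of their families, and Neto2 at 4.25 far to the CA3 side.

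Voltage-gated potassium channels were divided by member, with 16 of 42 higher in CA3 PNs and 15 in DGCs, or 14 and 18 with library totals. Kcnq5, a subunit of the M-current, had 119, 169 and 204 CPM in CA3 PNs and 0.954, 3.51 and 6.26 CPM in DGCs (LFC 5.49), while Kcnq3 was not called (LFC -0.10, edgeR adjusted p = 0.304, and with library totals it was called towards DGCs, LFC -0.33). Among the fast Kv3 channels, Kcnc2 had 99.1, 141 and 203 CPM against 0.828, 6.47 and 12.7 CPM (LFC 4.62) and Kcnc4 had 0, 1.26 and 2.86 CPM against 61.8, 97.9 and 107 CPM (LFC -5.82). Kcnc1 was higher in CA3 PNs by less (LFC 0.76). In the Kv1 family Kcna2 was higher in CA3 PNs (LFC 1.51) and Kcna4, an A-type subunit, in DGCs (LFC -1.44).

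Of 19 leak, inward rectifier and calcium-activated potassium channels, 9 were higher in DGCs and 6 in CA3 PNs. Kcnk9, the leak channel TASK3, had 1.48, 4.55 and 6.29 CPM in CA3 PNs and 91.0, 120 and 149 CPM in DGCs (LFC -4.69), and the inward rectifiers Kcnj4 (LFC -2.53) and Kcnj2 (LFC -2.18), which hold the resting potential negative, were higher in DGCs too. Kcnk4, the leak channel TRAAK, lay the other way, with 28.8, 32.5 and 44.0 CPM against 0, 1.01 and 1.3 CPM (LFC 5.13). The large-conductance channel Kcnma1 (LFC 0.87) and its subunit Kcnmb4 (LFC 1.37) were both higher in CA3 PNs.

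Sodium and HCN channels lay towards CA3 PNs, with 10 of 14 members higher there and 1 in DGCs (median LFC 0.71). Hcn2, a channel of the hyperpolarisation-activated current, had an LFC of 1.72. Of the sodium channel subunits, Scn4b (LFC 3.95) and Scn1a (LFC 1.48) were higher in CA3 PNs. Scn3a, the channel best known from the embryonic brain, was the member higher in DGCs, with 37.7, 60.3 and 70.1 CPM against 199, 246 and 278 CPM (LFC -2.0). Of 16 calcium channel genes, 8 were higher in CA3 PNs and 3 in DGCs, or 5 and 6 with library totals. The P/Q-type channel Cacna1a had 543, 635 and 681 CPM against 185, 207 and 234 CPM (LFC 1.59) and the T-type channel Cacna1h had 64.3, 84.8 and 94.0 CPM against 285, 337 and 391 CPM (LFC -2.06).

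Calcium buffers, sensors and calmodulin targets included 16 of 31 genes higher in CA3 PNs and 9 in DGCs. Beside Calb1, Pcp4 and the kinase subunit Camk2g (LFC -1.24) were higher in DGCs. Vsnl1, a neuronal calcium sensor, had 436, 519 and 830 CPM in CA3 PNs and 85.9, 104 and 113 CPM in DGCs (LFC 2.49), and Hpca, the sensor hippocalcin, had 1360, 1990 and 2300 CPM against 569, 625 and 765 CPM (LFC 1.58), with the kinase Camk1d at an LFC of 1.93.

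In second messenger pathways the direction differed by enzyme. Of 48 genes tested, 23 were higher in CA3 PNs and 18 in DGCs, or 19 and 20 with library totals. The classical protein kinase C gene Prkca was higher in CA3 PNs, at 819, 893 and 997 CPM against 157, 179 and 261 CPM (LFC 2.25). So was Prkcb, chosen after its values were seen, with an LFC of 2.43. The enzymes that lower diacylglycerol, which activates those kinases, were not all on 1 side: Dgkh was higher in DGCs, while Dgkb, also chosen after its values were seen, was higher in CA3 PNs (LFC 1.80). Among calmodulin-dependent phosphodiesterases Pde1b had 23.4, 26.3 and 39.3 CPM in CA3 PNs and 222, 254 and 285 CPM in DGCs (LFC -3.13), while Pde1a, chosen after its values were seen, had 121, 138 and 172 CPM against 0, 0.945 and 2.60 CPM (LFC 7.23).

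Neuropeptides, granins and growth factors gave 14 of 25 genes higher in CA3 PNs and 7 in DGCs. Cck, the cholecystokinin precursor, had 367, 447 and 554 CPM in CA3 PNs and 26.5, 45.1 and 65.1 CPM in DGCs (LFC 3.30). Scg2, the precursor of secretoneurin, had 68.2, 80.5 and 116 CPM against 277, 323 and 406 CPM (LFC -1.99), opposite to Chgb. Ntf3, the growth factor neurotrophin-3, had 0, 0.580 and 1.11 CPM against 17.2, 23.7 and 27.3 CPM (LFC -5.42). Ntf3 and Pdyn were thus DGC transcripts, whereas Bdnf, a neurotrophin abundant in mossy fibres and chosen after its values were seen, was at 73.2, 84.9 and 95.6 CPM against 45.8, 70.5 and 84.9 CPM (LFC 0.29, edgeR adjusted p = 0.0292), with overlapping groups. That call was lost without mouse 15-145, 17-172 or 17-56 (edgeR adjusted p = 0.0601, 0.0898 and 0.0897) and with library totals (LFC 0.06).

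Of 39 receptors for neuromodulators and neurotrophins, 17 were higher in CA3 PNs and 11 in DGCs. The muscarinic receptors divided, with Chrm3 at 172, 191 and 229 CPM in CA3 PNs and 0, 0.391 and 3.18 CPM in DGCs (LFC 7.69, SE 0.23) and Chrm1 at 277, 334 and 414 CPM against 313, 367 and 404 CPM (not called, with LFC -0.35 and called towards DGCs with library totals). The serotonin receptors lay on both sides, since Htr2a was at 16.1, 31.7 and 47.4 CPM in CA3 PNs with 2 counts in all DGC libraries (ratio 111, 30.4 to 917, or at least 56.6-fold higher without mouse 15-147, which held both), and Htr4 was at 0, 1.85 and 8.89 CPM against 35.3, 53.7 and 69.6 CPM (LFC -4.02). Both dopamine receptors of the D1 class were DGC transcripts, Drd5 at an LFC of -4.62 and Drd1 at -3.53, at levels of at most 29.1 CPM.

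Receptors for peptides followed. Npy1r, a receptor of neuropeptide Y, had 1.37, 2.76 and 5.00 CPM in CA3 PNs and 60.4, 78.3 and 105 CPM in DGCs (LFC -4.78), Npy5r was also higher in DGCs (LFC -2.44) and Npy2r, the presynaptic receptor, was higher in CA3 PNs (LFC 1.10). Adora1, the adenosine A1 receptor, had 511, 595 and 662 CPM against 117, 135 and 182 CPM (LFC 2.09), and the growth factor receptor Fgfr1 had an LFC of 1.68. The receptors of acetylcholine, serotonin and neuropeptide Y thus differed from subtype to subtype.

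Guidance molecules differed by family member as well. Of 28 semaphorins, plexins and neuropilins, 14 were higher in CA3 PNs and 9 in DGCs. Plxna1, a semaphorin receptor, had 425, 513 and 543 CPM in CA3 PNs and 28.6, 38.7 and 49.6 CPM in DGCs (LFC 3.68), and the ligand Sema3e had 170, 221 and 238 CPM against 2.12, 3.86 and 10.8 CPM (LFC 5.42). Sema5a, a ligand that limits synapse number on granule cells, had 202, 277 and 417 CPM against 853, 899 and 1060 CPM (LFC -1.74), opposite to its relative Sema5b. Of 19 Eph receptors and ephrins, 9 were higher in CA3 PNs and 5 in DGCs. The receptors Epha6 (LFC 2.35), Epha5 (LFC 1.49) and Ephb1 (LFC 2.38) were higher in CA3 PNs, and the ligand Efnb3 had 5.65, 8.52 and 14.1 CPM against 62.6, 73.6 and 93.5 CPM (LFC -3.19).

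Immediate early genes, which follow recent firing, lay towards CA3 PNs, with 17 of 26 higher there, 5 in DGCs and 4 not called (median LFC 1.06). Nr4a3, an orphan nuclear receptor, had 461, 481 and 534 CPM in CA3 PNs and 13.3, 18.1 and 27.3 CPM in DGCs (LFC 4.71, SE 0.11). Egr1 had 157, 209 and 233 CPM against 18.3, 25.7 and 32.3 CPM (LFC 2.97), and Dusp6, a phosphatase of the ERK kinases, had 47.9, 68.8 and 91.0 CPM against 0.782, 1.16 and 2.60 CPM (LFC 5.57). Not all members were on that side: Jun, a component of the AP-1 factor, had 15.7, 25.0 and 43.4 CPM in CA3 PNs and 299, 348 and 386 CPM in DGCs (LFC -3.59, SE 0.10), and Btg2 (LFC -2.21) and Dusp4 (LFC -1.32) were also higher in DGCs.

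Genes of neurofilaments, tubulins and microtubule-associated proteins were higher in CA3 PNs in 24 of 32 cases and in DGCs in 4 (median LFC 0.81), with sums of 16700 to 20600 CPM against 10500 to 12000 CPM. Stmn2, a microtubule regulator of growth cones, had 426, 435 and 518 CPM in CA3 PNs and 3.31, 6.41 and 8.49 CPM in DGCs (LFC 6.23, SE 0.14). Tubb4a had 1130, 1430 and 1770 CPM against 149, 203 and 238 CPM (LFC 2.84), although tubulin genes share sequence and their counts are less certain. On the DGC side, Marcksl1, a substrate of protein kinase C at the membrane, had 0, 1.42 and 2.38 CPM against 83.9, 110 and 128 CPM (LFC -6.30), and its relative Marcks had an LFC of -2.48. Those substrates thus lay opposite to Prkca and Prkcb.

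Zinc transport was close to evenly divided, with 4 of 16 genes higher in CA3 PNs and 5 in DGCs (median LFC -0.05). Slc30a3, which loads zinc into synaptic vesicles, had 47.8, 57.9 and 67.2 CPM in CA3 PNs and 78.5, 89.4 and 102 CPM in DGCs (LFC -0.64), and the importer Slc39a6 had 33.0, 35.3 and 36.4 CPM against 141, 154 and 187 CPM (LFC -2.16). Of 26 steroid, retinoid and related receptors, 8 were higher in CA3 PNs and 6 in DGCs, or 6 and 7 with library totals. Over all genes tested 24% were higher in CA3 PNs and 21.6% in DGCs, and the zinc and receptor counts lay near those shares. The glucocorticoid receptor Nr3c1 had 40.8, 44.7 and 48.9 CPM against 99.8, 111 and 140 CPM (LFC -1.34) and its co-chaperone Fkbp5, a gene that glucocorticoids induce, had 17.0, 29.9 and 34.4 CPM against 68.0, 85.4 and 111 CPM (LFC -1.63). Of 13 mitochondrially encoded subunits, 7 could be tested, of which 5 were higher in CA3 PNs, or 2 with library totals, and 1 in DGCs, all with overlapping groups. The other 6, mt-Co2 among them, were listed at 0 in all 12 libraries although every cell uses them, so a listed 0 need not mean that RNA was absent.

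**Figure D4:**
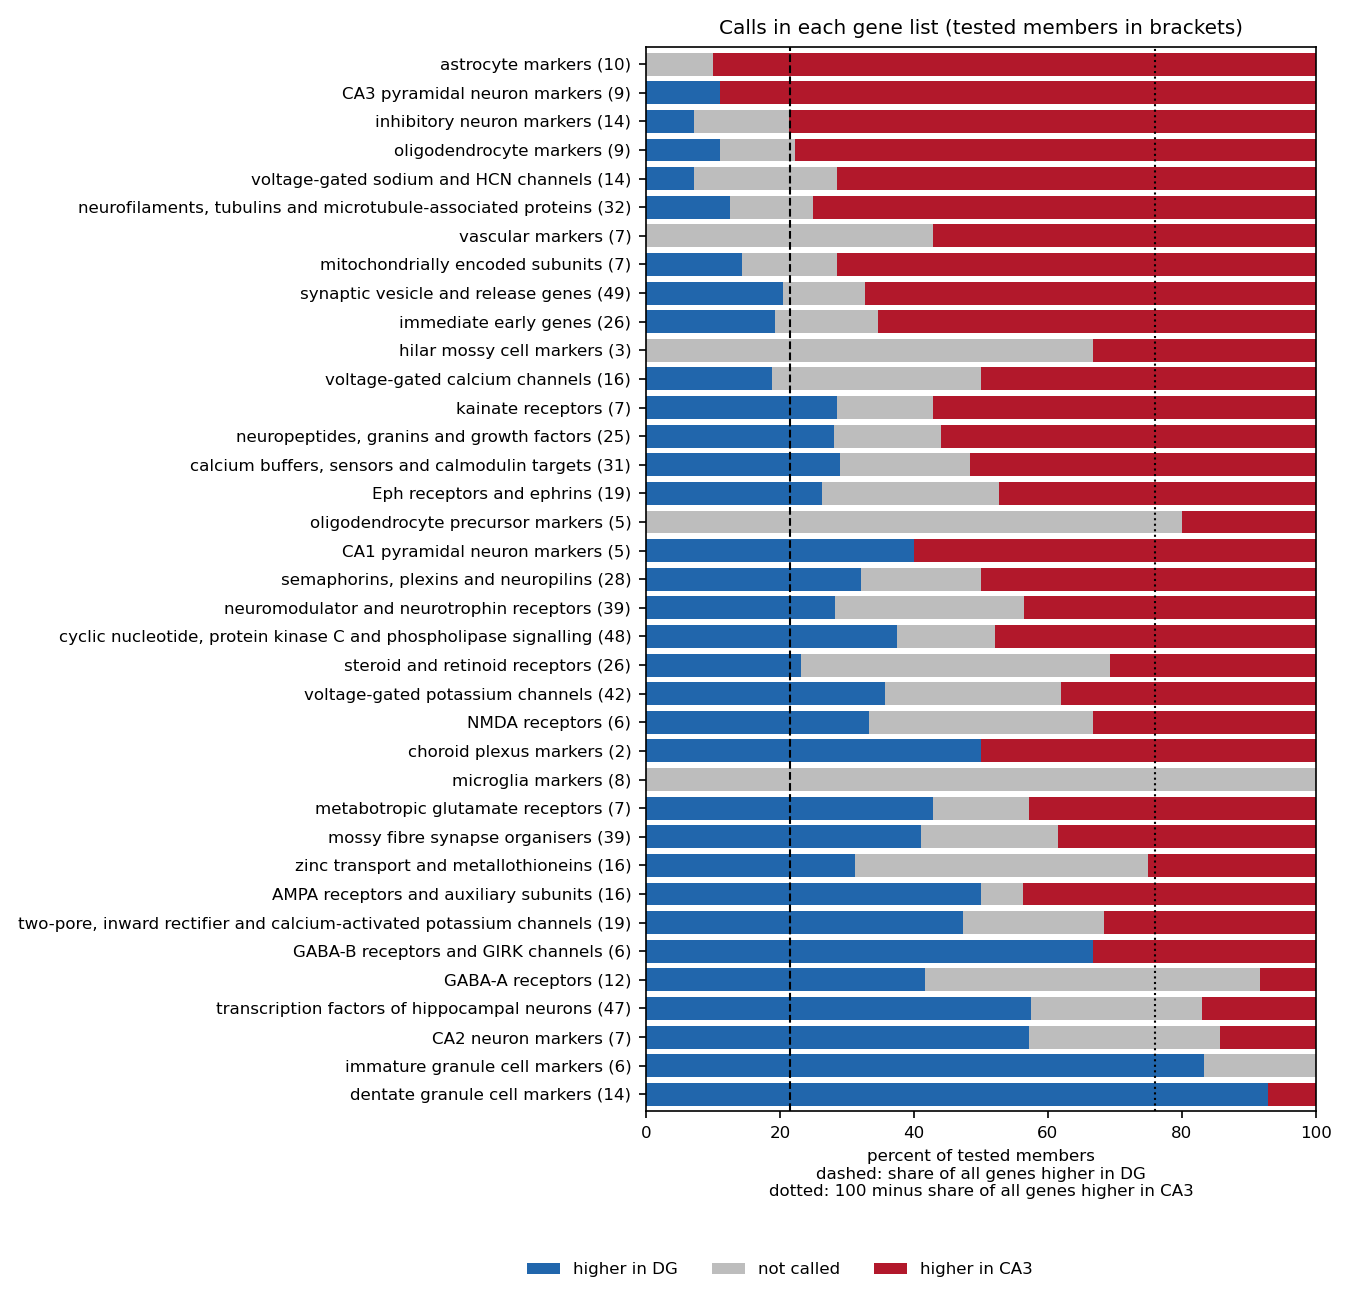
Share of the tested members of each gene list, in percent, that were called higher in DGCs, not called, or called higher in CA3 PNs. The dashed line stands at the share of all 15980 genes that was higher in DGCs, 21.6% from the left, and the dotted line at the share higher in CA3 PNs, 24% from the right; cytoskeletal genes (24 of 32) and vesicle genes (33 of 49) are far past the dotted line, and transcription factors (27 of 47) stand on the DGC side.

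The same comparison in the 7 other 2N mice, whose dams had the ChP diet, called 6745 of 15075 genes (44.7%), 3457 of them (22.9%) higher in CA3 PNs, and 50.2% had an unadjusted p under 0.05. Of 3780 genes higher in CA3 PNs on ChN that could be tested there, 3724 (98.5%) had the same direction, 3040 (80.4%) were called in that direction and 1 was called in the other. Of 3329 genes higher in DGCs, 3282 (98.6%) had the same direction, 2620 (78.7%) were called and 2 were called in the other. Among genes with an LFC over 2, 581 of 670 (86.7%) and 642 of 767 (83.7%) were called again in the same direction. Across 14751 genes the LFC of both sets of mice correlated with r = 0.901, which describes genes, not independent replicates. The marker genes had an LFC in the ChP mice of -7.57 (SE 0.13) for Prox1, -9.57 (SE 0.17) for Dsp, 5.08 (SE 0.22) for Bok, 4.54 (SE 0.16) for Nectin3 and 2.21 (SE 0.10) for Cpne4. Genes at 0 in the DGCs of the ChN mice were not all at 0 in the ChP mice: Neurod6 had an LFC of 9.12 (SE 0.19) there, Cd109 of 7.62 (SE 0.35) and Cyp26b1 of 6.04 (SE 0.34). As folds these 3 values were below the bounds given above for the same genes, so those bounds do not extend to the ChP mice. Rem2 (LFC 5.93), Ccdc3 (LFC 6.56) and Mgat4c (LFC 6.08) lay below their bounds too, and Il34 (LFC 7.496) and Prss35 (LFC 7.985) did not. The LFC of Prss35 had an SE of 2.188, close to the 2.119 on ChN, where the gene was at 0 in DGCs. An LFC with so wide an SE cannot show that its bound extends to the ChP mice.

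**Figure D5:**
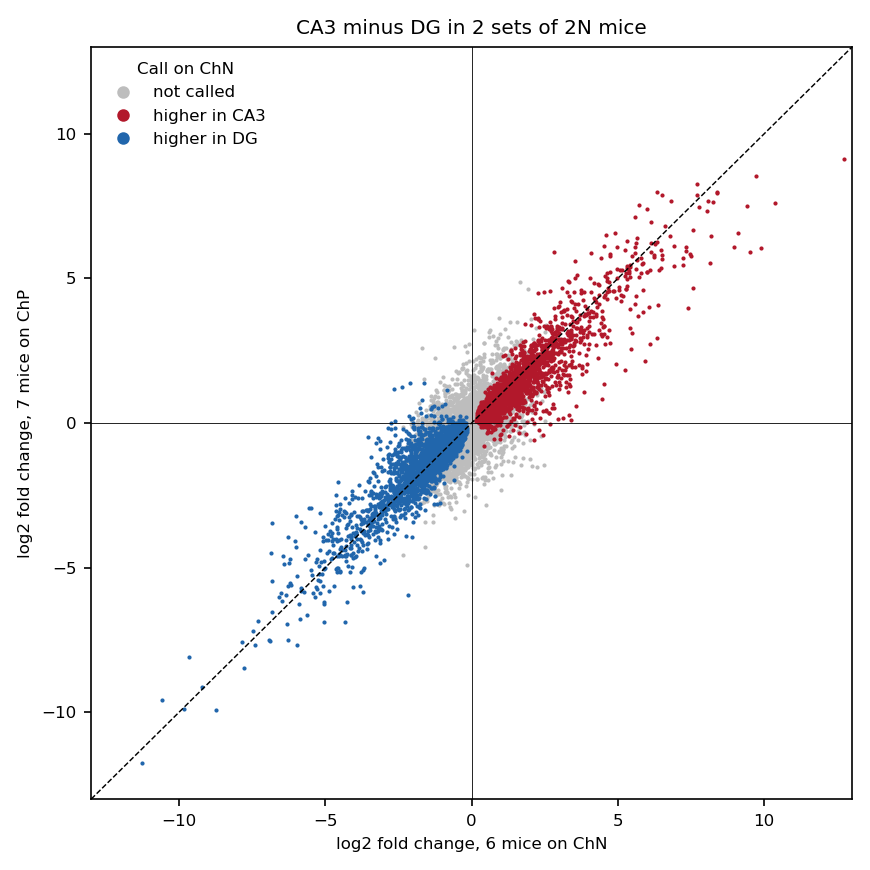
LFC (CA3 PNs over DGCs) in the 6 2N mice on ChN (x axis) and in the 7 2N mice on ChP (y axis) for 14751 genes tested in both, with a dashed line of identity. The points follow the line (r = 0.901); genes listed at 0 in a population of either set have a fitted LFC that depends on the prior count.

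Whether the difference between the populations changed with genotype was tested as an interaction in the 24 ChN libraries of 6 2N and 6 Ts mice. Of 18628 genes, 59 (0.317%) passed, 23 (0.123%) with a positive value, and 1129 (6.06%) had an unadjusted p under 0.05. The value is the LFC of CA3 PNs over DGCs in Ts mice minus that in 2N mice, and CPM here are scaled over the 24 libraries. Jun had 15.8, 24.9 and 43.5 CPM in 2N CA3 PNs and 36.6, 58.1 and 94.0 CPM in Ts CA3 PNs, against 298, 350 and 386 CPM and 311, 367 and 437 CPM in DGCs (difference 0.99, SE 0.14, edgeR adjusted p = 1.26e-08). Adcy1 had 108, 135 and 187 CPM in 2N CA3 PNs and 53.8, 74.8 and 120 CPM in Ts CA3 PNs, against 2430, 2770 and 2880 CPM and 2370, 2660 and 2850 CPM in DGCs (difference -0.66, SE 0.10, edgeR adjusted p = 1.73e-07). The ranges of the genotypes overlapped for both genes in CA3 PNs as well as in DGCs, and in CA3 PNs the Ts median was higher for Jun and lower for Adcy1. The call for Adcy1 was lost in 5 of 15 alternatives, among them DESeq2 (adjusted p = 0.504), limma-voom (adjusted p = 0.0533) and edgeR with filterByExpr (adjusted p = 0.281), while that for Jun was lost in the 2 without the mouse block (edgeR adjusted p = 0.257 and 0.368) and that for Arhgef10l in none. Arhgef10l, a guanine exchange factor of small GTPases, had 8.36, 13.5 and 23.4 CPM in 2N CA3 PNs and 1.64, 3.43 and 8.37 CPM in Ts CA3 PNs, against 5.73, 13.2 and 21.8 CPM and 17.3, 19.4 and 31.6 CPM in DGCs (difference -2.53, SE 0.40, edgeR adjusted p = 3.52e-07). In 2N mice alone the gene was not called (LFC 0.02, SE 0.26). Fras1, an extracellular matrix protein, differed by -1.47 (SE 0.22). Gm20458 had the smallest p, but it overlaps Dbndd2 and Sys1 on the same strand and was listed at 0 in all 6 DGC libraries of 2N mice on ChN, while its median was 7.23 CPM in Ts DGCs, so its value is uncertain. The count of 59 depended on the mouse block, since 15 genes passed without it, and 4 passed with DESeq2.

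With maternal diet, tested in the 26 libraries of 13 2N mice, 8 of 18427 genes (0.0434%) passed, 6 (0.0326%) with a positive value, and 754 (4.09%) had an unadjusted p under 0.05. Pcdh19, a protocadherin, had 21.1, 48.3 and 56.5 CPM in CA3 PNs on ChN and 45.7, 75.5 and 133 CPM on ChP, with 178, 217 and 241 CPM and 198, 218 and 232 CPM in DGCs (difference 0.85, SE 0.15, edgeR adjusted p = 0.000333). Syt17 had a difference of 2.39 (SE 0.50) and Fras1 of -1.16 (SE 0.24), and Gm28043, which overlaps Cmtr1 and Rnf8 on the same strand, of 2.07 (SE 0.34). In CA3 PNs Syt17 had only 0, 0.655 and 1.23 CPM on ChN and 1.11, 2.09 and 19.2 CPM on ChP. Its difference thus rests on values near the floor, with the highest ChP library far above the ChP median. The other genes were Gm20458, Pcdha4b, Ptprg and Crtac1, of which Pcdha4b lies in a cluster of protocadherins that share exons. Without the mouse block no gene passed, 2 passed with DESeq2 and 1 with limma-voom. The calls for Pcdh19, Syt17 and Fras1 were lost with DESeq2, with limma-voom and with filterByExpr, that for Gm28043 with limma-voom and filterByExpr, and that for Fras1 also without mouse 17-21 (edgeR adjusted p = 0.0688). Both interactions use the same 2N libraries on ChN, so a gene found in both, such as Gm20458 or Fras1, was not found independently.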

How the data were processed

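RNA of laser-captured CA3 PNs and DGCs was made into total RNA libraries with the SMARTer Stranded Total RNA-Seq Pico v3 kit and sequenced on a NovaSeq instrument. The authors checked reads with FastQC 0.11.9, trimmed them with Trimmomatic 0.39 where needed, aligned them to GRCm39 with STAR, took alignment measures with Picard 2.26.2 and estimated levels with RSEM, whose expected counts and TPM per gene were deposited; the deposited expected counts are estimates, of which 2.8% of the values above 0 were not whole, and they were rounded here. Reads shared by near-identical or overlapping genes are split by that estimate. Of 57010 gene identifiers, 56310 had a symbol in GENCODE M39. One 2N mouse had its regions isolated anew from adjacent sections; it is not named in the sources. The study's own fit, the DREAM pipeline built on limma-voom, with RNA concentration and read measures as covariates, was not used here.

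A gene entered the test when 6 or more libraries of the comparison (7 in the ChP mice) exceeded 0.1 CPM. Differences were fitted in R 4.3.3 by the robust quasi-likelihood method of edgeR 4.0.16, scaled by TMM, with the mouse as a block. The LFC used edgeR's default prior count, and only log2 CPM from edgeR used a prior count of 2. Each SE was derived from the F of the quasi-likelihood test and is not a fitted standard error. P-values were adjusted by Benjamini-Hochberg over all genes tested, with a threshold of 0.05. Pairing comes from the mouse identity in the labels. Deviations from the group means correlated at 0.002 to 0.177 between libraries of the same mouse (6 pairs) and at -0.083 to 0.05 between mice. No library pair agreed within sampling noise. Alternatives were DESeq2 1.42.0, limma 3.58.1 (voom), other scalings and filters, no mouse block, and each mouse left out. The tests were checked on simulated data in which 200 genes were changed. In the real comparison 45.6% of genes were called, so that check does not cover the choice of scaling. TPM is used only to compare levels between genes, as the mean of 6 libraries. Intervals of count ratios are exact at 95% and cover counting error only, and a gene at 0 was set against a floor of 3 counts over the group.

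Samples were grouped by the labelled population, genotype and diet. The comparison, the gene lists and the rule for named genes were chosen with earlier results of these data known. The rule took the 5 markers, the 10 genes with the largest LFC in each direction among protein-coding genes with at least 20 CPM and no overlap, up to 3 members of each list and direction by smallest p together with members of receptor and channel families, up to 5 genes per interaction, and the 5 largest differences in CPM in each direction. Libraries of other regions and of Ts mice on ChP were left out. Some genes named by the rule are not reported here.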

Additional observations from a re-analysis of the deposited data

Results flagged for a closer look

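In 321 groups of 6 libraries (the CPM of each gene named in the report in each population where all 6 libraries held it, and the depth measures), 20 held a library far from the other 5 by Dixon's test at the 95% level, which chance gives in about 1 group of 20. Among CA3 PN libraries, mouse 17-56 was low for Ajap1 (47.2 CPM), Kcna2 (327 CPM) and Scn3a (37.7 CPM), mouse 17-21 was low for Ccdc3 (23 CPM) and Fkbp5 (17.0 CPM), mouse 17-154 was high for Fgfr1 (351 CPM), mouse 15-147 was low for Kcna4 (33.5 CPM), and mouse 15-145, whose library is labelled Ts, was high for Snap25 (5070 CPM). Among DGC libraries, mouse 17-56 was low for Camk1d (175 CPM) and Mef2a (181 CPM) and high for Doc2b (278 CPM), mouse 15-145 was low for Dcx (6.50 CPM) and high for Kl (33.8 CPM) and Prkca (261 CPM), and mouse 17-154 was high for Grik2 (273 CPM) and low for Grik4 (23.5 CPM). Mouse 17-21 was low for Nectin3 (1.06 CPM) and Neurod1 (42.5 CPM), mouse 15-147 was low for Pcdha4b (1.89 CPM), and mouse 17-172 was high for Sema3e (10.8 CPM).

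Between genotypes, the CA3 PN over DGC difference changed, by the test of the interaction, for Gm20458 by -7.59, Jun by 0.99, Adcy1 by -0.66, Fras1 by -1.47 and Arhgef10l by -2.53 on the log2 scale. Between maternal diets it changed for Gm20458 by -7.65, Gm28043 by 2.07, Pcdh19 by 0.85, Syt17 by 2.39 and Fras1 by -1.16. Both sets rest on the same 12 libraries of 2N mice on ChN, and the values of Gm20458 and Gm28043 are uncertain because these genes overlap others on the same strand. The value of Syt17 is uncertain too, because its CA3 PN levels on ChN were near the floor.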

How the results depend on the processing

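The 7281 calls between the populations became 5729 with DESeq2, 7540 with limma-voom, 7606 with library totals, 5919 with filterByExpr and 7408 without the replicate block, and 6601 to 7068 with 1 mouse left out; the pairing changed none of the counts over all genes by more than 1.5 times between the populations. For genotype 59 genes were called, against 4 with DESeq2, 9 with limma-voom, 15 with filterByExpr, 15 without the replicate block and 13 without the block and without the CA3 PN library of mouse 15-145, and 44 to 62 were called with 1 mouse of the 6 on ChN left out. For diet 8 genes were called, against 2, 1, 1, 0 and 1 under the same settings, and 6 to 9 with 1 mouse left out; Ts and ChP mice were not left out in turn. The causes were not tested. Of 1110 list counts under 15 alternatives, 61 moved by more than 1.5 times, 15 of them with filterByExpr. Of genes that were not called, 4 changed sign, and of these Grm5 was then called towards DGCs with library totals. Count ratios with 1 mouse left out were added after seeing the data. The LFC of Arhgef10l was -0.013 with DESeq2, -0.006 with limma-voom, -0.218 with library totals, -0.043 with size factors, -0.007 with the filter of the study, -0.057 with filterByExpr and -0.081 to 0.182 with 1 mouse left out. Grm5 and Tbr1 came to -0.011 and -0.016 with DESeq2 and again with size factors, -0.192 and -0.197 with library totals, and -0.027 and -0.032 with filterByExpr. Mef2d came to 0.018 with limma-voom and without the replicate block, 0.0 with no filter and -0.07 to 0.062 with 1 mouse left out, and Tbr1 to -0.013 to 0.103. Genes under a few CPM rest on single counts, since 1 count was worth up to 1.57 CPM.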
